A study of Mus musculus with 24 samples.

Results

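The genes described here are 10 genes of the transforming growth factor beta (TGF-beta) pathway, taken by symbol from the 56748 genes of a read-count table of mouse dental mesenchyme. They comprise the ligand genes Tgfb1, Tgfb2 and Tgfb3, the receptor genes Tgfbr1, Tgfbr2 and Tgfbr3, the latent TGF-beta binding protein genes Ltbp1, Ltbp2 and Ltbp3, and Tgfbi, a secreted protein named for its induction by the ligand. The genes were taken by name and not by a limit on a measured value, and all 10 passed the filter on low counts in each comparison. Levels are given in every group of the study, followed by the comparisons of side, stage and culture.

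The mesenchyme came from mandibular first molar tooth germs of ICR mice, without any transgene or treatment, at the cap stage (E13) and the bell stage (E15). At each stage the germs were either left undivided (Cap-W, Bell-W) or cut into a lingual part, toward the tongue (Cap-L, Bell-L), and a buccal part, toward the cheek (Cap-B, Bell-B). Some cap stage parts of either side were also kept in vitro for 2 days, each without its counterpart (Cap-L + 2D, Cap-B + 2D). Dispase II was used to free the mesenchyme of epithelium, and the 8 groups held 3 libraries each. The series' design text calls the W groups whole tooth germ, whereas the labels of their libraries name mesenchymal cells. The labels do not state how many embryos went into a library or whether the 3 libraries of a group came from separate litters, and the study's methods describe the replication in more than one way, so that the libraries may be technical repeats and the p-values measure only the spread between these libraries. Cultured parts were 2 days older than the fresh cap stage parts they are compared with, and had been kept without their counterpart. Culture, age and the loss of the counterpart cannot be told apart in that comparison.

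TGF-beta ligands are secreted in a latent form, in which the mature dimer stays bound to its own propeptide. Latent TGF-beta binding proteins tie that complex to fibrillin and fibronectin in the matrix, from which integrins, thrombospondin or proteases free the ligand. The free ligand is bound by the type II receptor, which recruits and phosphorylates the type I receptor, and the type I receptor activates Smad2 and Smad3. In the tooth germ, the pathway is known for its part in the growth of the mesenchyme, in its matrix and in the differentiation of odontoblasts.

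Read-pair counts per library totalled between 20581720 and 39266497, so that the floor of 3 counts was 0.0764 CPM in the deepest library and 0.146 CPM in the shallowest. CPM are counts per 1000000 counted pairs. Levels are CPM scaled by TMM factors over all 24 libraries, written below as normalized CPM, and levels of different genes are compared per kilobase of exon. All 10 markers of dental mesenchyme, among them Msx1, Pax9 and Lhx6, were above the floor in every library. So were all listed markers of epithelium, endothelium and macrophages, so presence above the floor does not show purity. Bell-W replicate 3 differed from its group, with epithelial markers summing to 2142.6 normalized CPM against 500 and 579 in the other Bell-W libraries, while Cap-W replicate 1 differed most from its own group in a chi-square comparison of counts over genes (161 and 124 per degree of freedom). Results on the undivided mesenchyme are given with and without these libraries. Skeletal muscle markers separated the sides, as given beside the comparisons of side.

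Per kilobase, Tgfb3 was the most abundant ligand transcript in the lingual part, and Tgfb2 and Tgfb3 were about as abundant as each other in the buccal part at the cap stage. In Cap-L the mean levels per kilobase were 51.6 ± 1.46 (SD, n = 3) for Tgfb3, 5.77 ± 0.546 (SD, n = 3) for Tgfb1 and 5.11 ± 0.139 (SD, n = 3) for Tgfb2. In Cap-B they were 23.1 ± 0.228 (SD, n = 3) for Tgfb3, 21.7 ± 0.561 (SD, n = 3) for Tgfb2 and 3.89 ± 0.143 (SD, n = 3) for Tgfb1. The ligand genes therefore differed in rank between the sides, with Tgfb2 lowest in Cap-L and close to Tgfb3 in Cap-B. Expressed as a share of the summed ligand level per kilobase, Tgfb2 made up 8.18% ± 0.221 (SD, n = 3) in Cap-L and 44.5% ± 0.933 (SD, n = 3) in Cap-B. After culture its share was 14.8% in Cap-L + 2D and 48.2% in Cap-B + 2D, and at the bell stage it was 21.8% in Bell-L and 27% in Bell-B. Tgfb3 made up 82.6% of the ligand level in Cap-L, 47.5% in Cap-B, 69.2% in Bell-L and 62.9% in Bell-B. The mean share of Tgfb1 ran from 6.43% in Cap-B + 2D to 13.9% in Bell-W, where the libraries gave 9.79%, 10.4% and, in replicate 3, 21.6%. Summed over the 3 ligand genes, the level per kilobase was lowest in Cap-W, at 31.8 ± 2.04 (SD, n = 3), and highest in Cap-L + 2D, at 140 ± 1.29 (SD, n = 3). Exon length here includes bases shared with other genes, where pairs were not counted. These make up 12.4% of the exon bases of Tgfb3 and 2.14% of those of Tgfb2, so Tgfb3 may read low against Tgfb2. The order of Tgfb2 and Tgfb3 in Cap-B + 2D, at 48.2% and 45.4%, is therefore not settled.

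**Figure D1:**
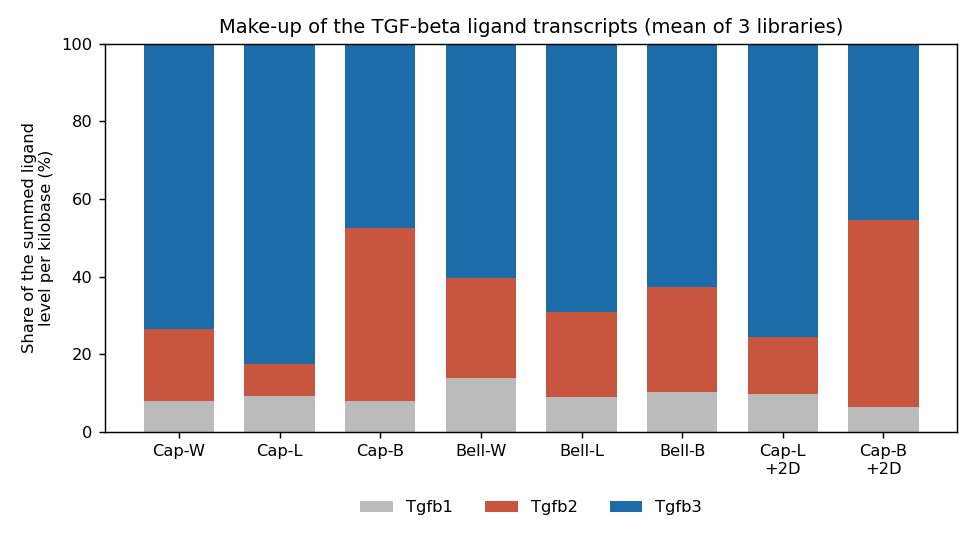
Bars give the mean share (percent, n = 3 libraries) of Tgfb1, Tgfb2 and Tgfb3 in the summed ligand level per kilobase of exon, for each of the 8 groups. The Tgfb2 share is near 8% in Cap-L and above 40% in Cap-B and Cap-B + 2D, while the bars of the bell stage parts look alike. Exon length includes bases shared with other genes, where pairs were not counted, so the Tgfb3 share may read low.

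Tgfb2 (ENSMUSG00000039239, GRCm39 chromosome 1, 186354989 to 186438186, minus strand) encodes the ligand best known for its roles in neural crest and craniofacial development. The promoter is shown because this gene had the widest difference between the sides at the cap stage. Of its 250 bases before the RefSeq start, only the distal 83 lie outside annotated exons, at chr1:186438354-186438436, and are printed on the gene's strand with the Smad-binding letters CAGAC in capitals.
Tgfb2: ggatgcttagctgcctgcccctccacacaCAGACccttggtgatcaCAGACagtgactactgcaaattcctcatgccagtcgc
The copies began 221 and 204 bases before the start, and a TATAAA began 31 bases before it, outside the stretch printed. Searched on both strands, CAGAC was present in 42.2% and TATAAA in 12.4% of the 32851 RefSeq promoters of the same length, so the first of these matches is common.

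The level of Tgfb2 was 28.7, 29.8 and 30.2 normalized CPM in the Cap-L libraries and 125, 129 and 122 in the Cap-B libraries. In Bell-L the libraries gave 97.2, 101 and 99.5, and in Bell-B 81.5, 89.4 and 80.7. After culture they gave 119, 122 and 118 in Cap-L + 2D and 246, 235 and 221 in Cap-B + 2D. Every Cap-B library lay above every Cap-L library and every Cap-B + 2D library above every Cap-L + 2D library, whereas at the bell stage the lingual libraries were the higher ones. Cap-W, at 35.7, 33.6 and 32.9 normalized CPM, was close to Cap-L rather than midway between the parts.

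Tgfb3 (ENSMUSG00000021253, GRCm39 chromosome 12, 86103519 to 86125815, minus strand), the ligand needed for fusion of the palatal shelves, was higher on the lingual side throughout. Its values were 171, 180 and 173 normalized CPM in Cap-L against 78.4, 77.4 and 78.9 in Cap-B. At the bell stage they were 189, 180 and 183 in Bell-L against 111, 118 and 113 in Bell-B. After culture they were 359, 351 and 360 in Cap-L + 2D against 126, 126 and 133 in Cap-B + 2D. Lingual libraries were above buccal ones without overlap in all 3 settings, and Cap-W and Cap-B overlapped at the low end. Exons of Tgfb3 share 12.4% of their bases with other annotated genes, where read pairs were not counted.

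Tgfb1 (ENSMUSG00000002603, GRCm39 chromosome 7, 25386427 to 25404502, plus strand), the ligand abundant in blood and bone matrix, had 26.5, 31.9 and 28.8 normalized CPM in Cap-L and 20.3, 18.9 and 19.7 in Cap-B. The Bell-L libraries gave 36.4, 34.4 and 36.2, and the Bell-B libraries 28.5, 26.9 and 27.3. After culture the values were 69.8, 67.3 and 67.7 in Cap-L + 2D and 26.3, 26.4 and 28.8 in Cap-B + 2D. The lingual libraries were the higher ones each time, and Cap-L + 2D lay above every other library of the study. In Bell-W, replicate 3 read 61.5 normalized CPM where the others read 22.6 and 23.7.

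**Figure D2:**
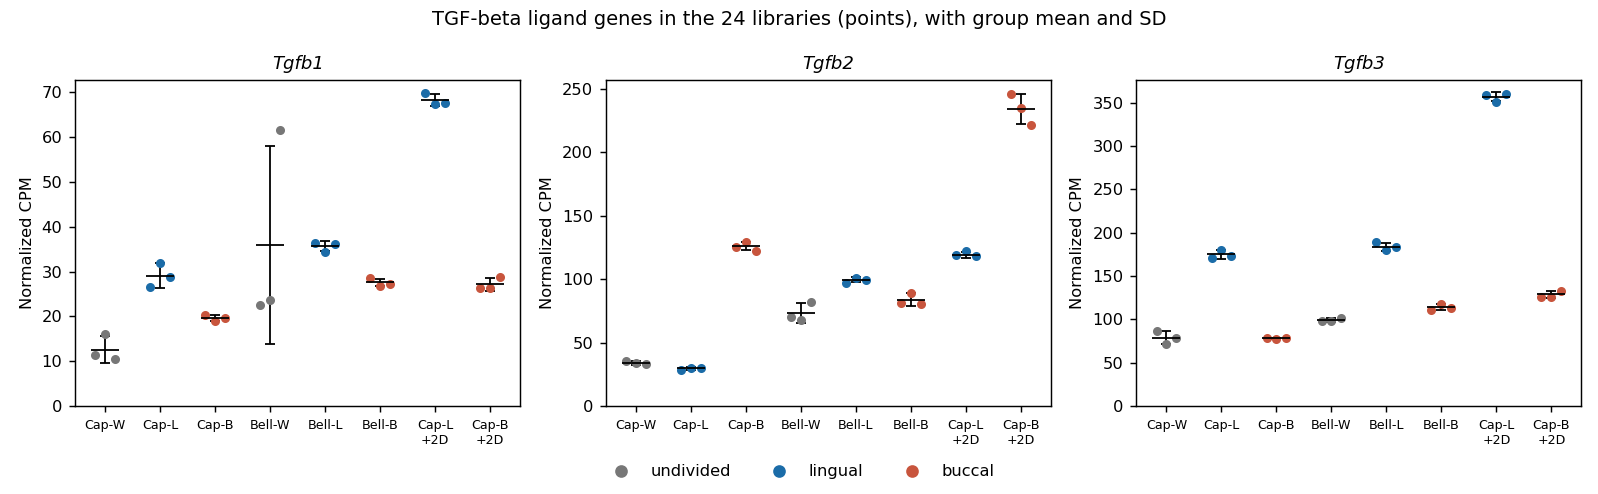
Each panel plots normalized CPM (y axis, from 0) of 1 ligand gene in the 24 libraries (points), with the mean (line) and SD (bars) of each group of 3. Tgfb3 and Tgfb1 peak in Cap-L + 2D, Tgfb2 peaks in Cap-B + 2D, and the single high Bell-W point in the Tgfb1 panel is replicate 3.

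The receptor genes behaved less alike. Tgfbr1 (ENSMUSG00000007613, chromosome 4, 47353222 to 47414931), the type I receptor kinase, had the narrowest range of the 10 genes, with group means from 111 in Bell-W to 172 in Cap-W. Among the lingual and buccal groups its libraries stayed between 109 and 160 normalized CPM, and lingual and buccal libraries overlapped in every setting. Tgfbr2 (ENSMUSG00000032440, chromosome 9, 115913361 to 116004428), the type II receptor that binds ligand first, gave 106, 108 and 109 normalized CPM in Cap-L and 96.6, 91.8 and 96.1 in Cap-B. Its values were 176, 181 and 182 in Bell-L against 111, 108 and 109 in Bell-B, and 287, 282 and 290 in Cap-L + 2D against 179, 179 and 177 in Cap-B + 2D. The gap between the sides of Tgfbr2 was narrow at the cap stage and wide in the later groups. Tgfbr3 (ENSMUSG00000029287, chromosome 5, 107254436 to 107437495), betaglycan, is a co-receptor that presents TGF-beta2 to the type II receptor. In Cap-L it gave 45.4, 41.0 and 45.4 normalized CPM and in Cap-B 88.2, 93.3 and 87.2, so that this gene was on the side where Tgfb2 was high. The Bell-L libraries, at 68.6, 67.7 and 69.1, overlapped with the Bell-B libraries, at 72.6, 71.6 and 68.9.

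Among the latent binding proteins, Ltbp1 (ENSMUSG00000001870, chromosome 17, 75312563 to 75699507) is the family member known best for binding the latent complex. It had 177, 169 and 186 normalized CPM in Cap-L, 470, 466 and 477 in Cap-B, and 127, 126 and 130 in Cap-W. In the later groups its libraries lay between 360 and 397 on the lingual side and between 380 and 491 on the buccal side, so that Cap-L was the low group among the parts. RefSeq gives this gene more than one start, and the promoter of the first is shown because the gene was higher on the buccal side at the cap stage, like Tgfb2 and Tgfbr3. The 245 bases that precede its annotated exons, at chr17:75312274-75312518 on the plus strand, are printed with the cyclic AMP response letters TGACGTCA and the Smad-binding letters GTCTG, which are CAGAC on the other strand, in capitals.
Ltbp1: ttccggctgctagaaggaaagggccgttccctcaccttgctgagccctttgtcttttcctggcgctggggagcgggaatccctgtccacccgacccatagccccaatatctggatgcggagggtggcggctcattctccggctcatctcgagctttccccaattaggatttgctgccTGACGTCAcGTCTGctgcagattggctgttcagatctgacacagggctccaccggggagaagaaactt
TGACGTCA began 73 bases and GTCTG 64 bases before that start, the motifs do not overlap, and 1.55% of promoters of this length hold TGACGTCA on either strand. The promoter of the other start, at chr17:75485526-75485775, held no TGACGTCA and held GTCTG at 148 and 97 bases before its start.

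Ltbp2 (ENSMUSG00000002020, chromosome 12, 84829986 to 84923306), a binding protein of elastic fibres that is not thought to bind the latent ligand, had the widest range of the 10 genes, 249-fold between the lowest and the highest group mean. It was at 0.531, 0.662 and 0.930 normalized CPM in Cap-W, from 10, 20 and 21 read pairs. In Cap-L it was at 5.18, 5.58 and 6.24 and in Cap-B at 17.9, 17.1 and 16.0. The means then reached 78.9 ± 1.54 (SD, n = 3) in Bell-L, 87.5 ± 3.34 (SD, n = 3) in Bell-B, 148 ± 8.20 (SD, n = 3) in Cap-L + 2D and 176 ± 8.64 (SD, n = 3) in Cap-B + 2D. All libraries of the bell stage parts and of the cultured parts were thus above all libraries of the cap stage, although Bell-W, with 27.4, 16.7 and 34.2, reached down to the range of Cap-B. Another gene, D030025P21Rik, shares 9.34% of the exon bases of Ltbp2, where pairs were not counted. Ltbp3 (ENSMUSG00000024940, chromosome 19, 5790932 to 5808560), known from skeletal and dental defects in its absence, had means of 218 ± 8.41 (SD, n = 3) in Cap-L, 256 ± 6.22 (SD, n = 3) in Cap-B, 276 ± 9.26 (SD, n = 3) in Bell-L and 284 ± 10.8 (SD, n = 3) in Bell-B. After culture the order of the sides was turned, with 369, 353 and 379 normalized CPM in Cap-L + 2D above 276, 286 and 310 in Cap-B + 2D.

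**Figure D3:**
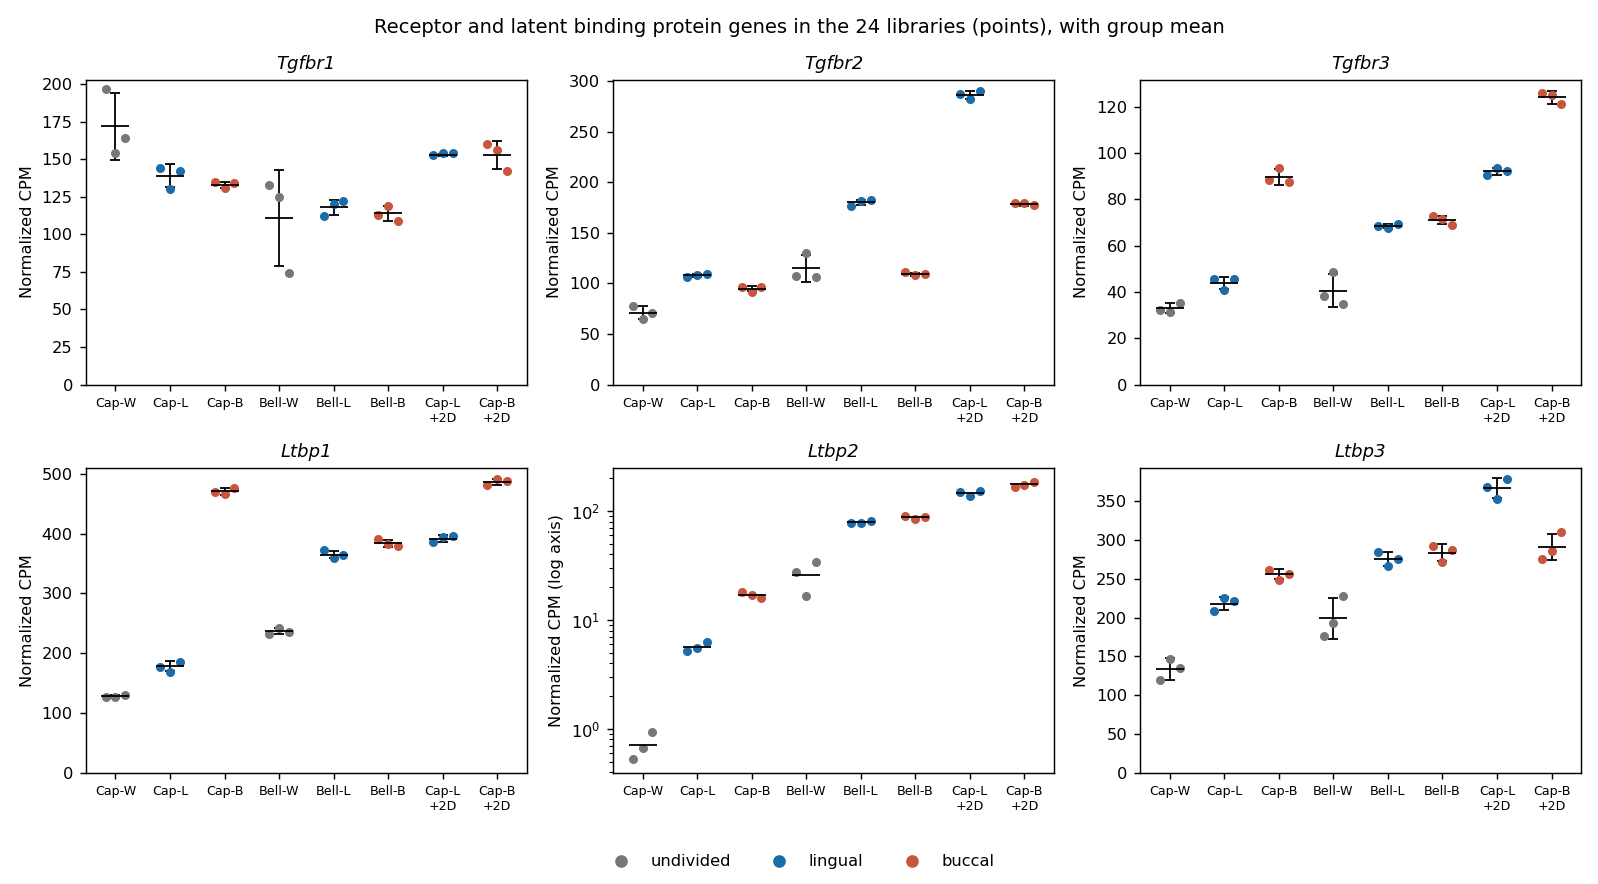
Each panel plots normalized CPM (y axis, logarithmic for Ltbp2 and from 0 elsewhere) of 1 receptor or latent binding protein gene in the 24 libraries (points), with the mean (line) of each group of 3 and its SD (bars, not drawn for Ltbp2). Tgfbr1 is nearly level across the parts, Cap-L lies below Cap-B for Tgfbr3 and Ltbp1, and Ltbp2 climbs from below 1 in Cap-W to above 100 in the cultured parts.

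Tgfbi (ENSMUSG00000035493, GRCm39 chromosome 13, 56757336 to 56787375, plus strand) encodes a secreted protein that binds collagens and integrins, and it was higher on the lingual side in all 3 comparisons, as Tgfb3 was. Its 187 bases before the first annotated exon base, at chr13:56757149-56757335, are shown because the gene is named for its response to TGF-beta, with GTCTG in capitals.
Tgfbi: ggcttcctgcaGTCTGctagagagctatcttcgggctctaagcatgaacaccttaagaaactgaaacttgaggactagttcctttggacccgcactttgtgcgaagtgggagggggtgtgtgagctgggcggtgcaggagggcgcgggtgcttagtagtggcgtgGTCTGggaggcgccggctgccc
The matches began 239 and 85 bases before the RefSeq start. A match in these letters describes the sequence only, and promoter entries were at hand for 8 of the 10 genes.

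Tgfbi read 210, 209 and 207 normalized CPM in Cap-L against 102, 101 and 105 in Cap-B. At the bell stage it read 274, 265 and 265 in Bell-L against 72.5, 69.8 and 72.4 in Bell-B. After culture the values were 580, 550 and 598 in Cap-L + 2D against 173, 178 and 181 in Cap-B + 2D. Lingual and buccal libraries did not overlap at any time, and the lowest group of the study was Bell-B while the highest was Cap-L + 2D.

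The comparison of the parts at the cap stage asked how the mesenchyme differs between the lingual and buccal sides. Genes higher on the buccal side were Tgfb2, Ltbp2, Ltbp1 and Tgfbr3, and genes higher on the lingual side were Tgfb3, Tgfbi and Tgfb1. Tgfb2 was 4.32-fold higher in the buccal part (log2 fold change 2.11, SE 0.05, edgeR adjusted p = 1.93e-16). Tgfb3 was 2.19-fold higher in the lingual part (log2 fold change -1.13, SE 0.04, edgeR adjusted p = 1.97e-13). Log2 fold changes of side are buccal over lingual. A gene was called where the adjusted p was below 0.05 and the log2 fold change passed 0.5 in either direction (edgeR's quasi-likelihood test, p-values adjusted by Benjamini and Hochberg over all genes tested). Of the 10 genes 7 were called, where 17.5% of all genes tested were, and 4 of the 7 were higher on the buccal side (10.4% of all genes) and 3 on the lingual side (7.10%). The libraries of the sides did not overlap for 9 of the 10 genes, all but Tgfbr1, as for 52.2% of all genes. The other buccal calls had log2 fold changes of 1.61 (SE 0.09) for Ltbp2, 1.43 (SE 0.05) for Ltbp1 and 1.06 (SE 0.05) for Tgfbr3. On the lingual side Tgfbi had -1.0 (SE 0.04) and Tgfb1 -0.54 (SE 0.07). The call for Tgfb1 was lost without Cap-L replicate 2, at -0.48, and in a fit of all 24 libraries, at edgeR adjusted p = 0.0907. Ltbp3 at 0.26 and Tgfbr2 at -0.16 stayed below the fold limit, and the value for Tgfbr1 was -0.04 (SE 0.05, edgeR adjusted p = 0.579). The median log2 fold change of the 10 genes was 0.11, against -0.01 over all genes.

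Cell type markers also differed between the sides of the cap stage. The sum of the 10 skeletal muscle markers was 21.7 to 22.8 normalized CPM in Cap-L, with Myf5 and Myf6 at or under the floor in all 3 libraries, and 205 to 220 in Cap-B, with Myf6 there. The 8 markers of Schwann cells and glia summed to 32.3 to 35.0 in Cap-L and 68.1 to 74.1 in Cap-B. The 8 osteoblast markers summed to 2687.3 to 2945.7 in Cap-L and 3572.2 to 3800.8 in Cap-B, and those of cartilage to 369 to 396 and 198 to 204. Bglap of the osteoblast list was at or under the floor in all Cap-B libraries, and Matn1 of the cartilage list in those of both parts. The osteoblast list also includes Col1a1, which is among the TGF-beta response genes treated below, and a sum can be carried by a single member. In the same libraries the 10 markers of endothelium summed to 575 to 581 and 508 to 524, the 10 of macrophages to 99.4 to 102 and 107 to 113, and the 10 of epithelium to 525 to 574 and 383 to 400. The part of these cells in the differences of the TGF-beta genes was not tested, and in bulk tissue fewer cells of a type and less RNA per cell cannot be told apart.

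At the bell stage fewer of the genes were called by side, and those that were called were higher on the lingual side. Tgfbi was 3.74-fold higher there (log2 fold change -1.90, SE 0.03, edgeR adjusted p = 2.45e-36). Tgfbr2 had a log2 fold change of -0.72 (SE 0.03) and Tgfb3 one of -0.69 (SE 0.03). These 3 of 10 genes were called, where 12.9% of all genes tested were and 6.88% were higher on the lingual side. The sides did not overlap for 7 of the 10 genes, as for 45.5% of all genes. Tgfb2 lay at -0.25 (SE 0.04, edgeR adjusted p = 7.18e-07) and Tgfb1 at -0.37 (SE 0.05), both within the fold limit. The values for Ltbp1, Ltbp2, Ltbp3 and Tgfbr3 ran from 0.04 to 0.15. The highest was that of Ltbp2 (edgeR adjusted p = 0.000985), buccal but within the fold limit. The value for Tgfbr1 was -0.05. Skeletal muscle markers summed to 120 to 131 normalized CPM in Bell-L, with Myf6 at or under the floor, and to 810 to 836 in Bell-B, macrophage markers to 374 to 380 and 204 to 208, and epithelial markers to 812 to 846 and 582 to 604. What these markers contribute was not tested.

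In the parts cultured for 2 days, 5 of the 10 genes were called, Tgfb2 higher on the buccal side and Tgfbi, Tgfb3, Tgfb1 and Tgfbr2 higher on the lingual side, with 25.1% of all genes tested called and 12.5% in either direction. The sides did not overlap for 9 of the 10 genes, all but Tgfbr1, as for 58.8% of all genes. Tgfb2 was 1.95-fold higher in the buccal part (log2 fold change 0.96, SE 0.04, edgeR adjusted p = 1.06e-16). On the lingual side, Tgfbi was 3.26-fold higher (log2 fold change -1.71, SE 0.04), Tgfb3 2.79-fold (-1.48, SE 0.04), Tgfb1 2.53-fold (-1.34, SE 0.05) and Tgfbr2 1.61-fold (-0.69, SE 0.04). Tgfbr3 at 0.42, Ltbp1 at 0.31, Ltbp2 at 0.25 and Ltbp3 at -0.34 had adjusted p-values under the threshold but did not reach the fold limit. Tgfbr1 had -0.01 (SE 0.04, edgeR adjusted p = 0.807). Skeletal muscle markers summed to 294 to 315 normalized CPM in Cap-L + 2D and to 3393.1 to 3575.2 in Cap-B + 2D, epithelial markers to 422 to 455 and 90.2 to 92.7, endothelial markers to 468 to 480 and 202 to 208, and macrophage markers to 316 to 326 and 216 to 221. Schwann cell and glia markers summed to 21.5 to 23.4 and 103 to 105, those of cartilage to 755 to 868 and 336 to 366, and those of smooth muscle and pericytes to 1144.5 to 1219.5 and 1830.6 to 1970.4. Their part in the differences was not tested.

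**Figure D4:**
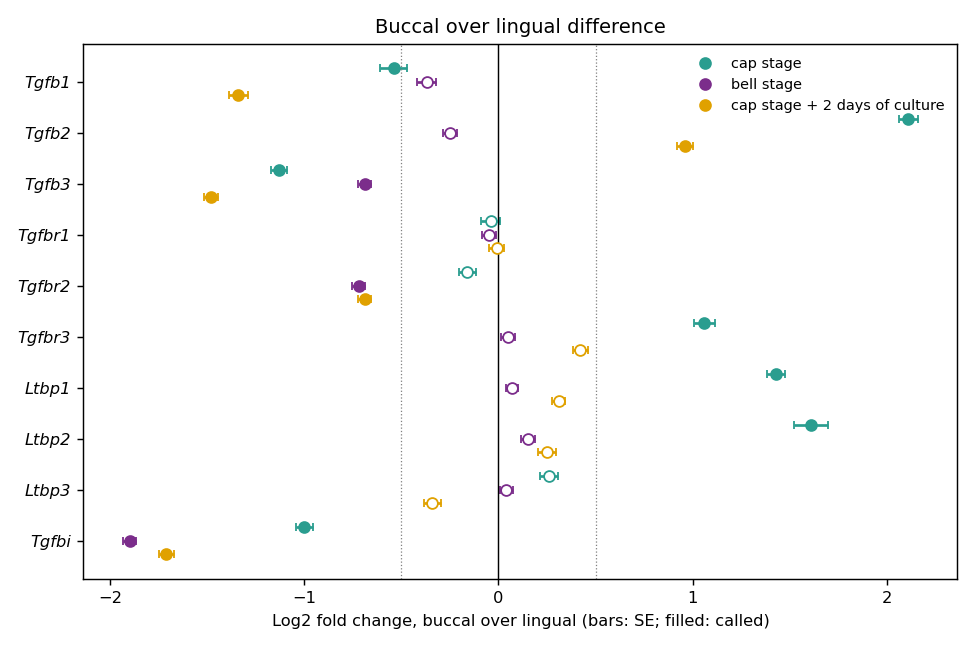
Points give the log2 fold change, buccal over lingual (x axis), of the 10 genes at the cap stage, at the bell stage and after 2 days of culture, with the SE as bars, filled where called and with dotted lines at the fold limit of 0.5. Tgfb3 and Tgfbi lie left of 0 in all 3 comparisons, and Tgfb2 lies right of 0 at the cap stage (2.11) and after culture (0.96) but at -0.25 at the bell stage.

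Stage was compared within each side to ask what changes as the germ goes from cap to bell. On the lingual side Ltbp2 (14.1-fold), Tgfb2 (3.39-fold), Ltbp1 (2.08-fold), Tgfbr2 (1.69-fold) and Tgfbr3 (1.58-fold) were higher at the bell stage, and none of the 10 genes was called lower. These were 5 calls, where 20.0% of all genes tested were called, 14.2% higher and 5.78% lower at the bell stage. The stages did not overlap for any of the 10 genes on either side, and the same held for 56.1% of all genes on the lingual side and 55.2% on the buccal side. Their log2 fold changes, bell over cap, were 3.82 (SE 0.07) for Ltbp2, 1.76 (SE 0.05) for Tgfb2, 1.06 (SE 0.04) for Ltbp1, 0.75 (SE 0.04) for Tgfbr2 and 0.66 (SE 0.05) for Tgfbr3, with edgeR adjusted p-values of 2.71e-11 or less. Tgfb3 was at 0.09 (SE 0.04, edgeR adjusted p = 0.0640), with the lowest Bell-L library just above the highest Cap-L library, both at 180 normalized CPM when rounded.

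On the buccal side the same ligand went the other way. Tgfb2 was 1.5-fold lower in Bell-B than in Cap-B (log2 fold change -0.59, SE 0.04, edgeR adjusted p = 9.62e-14), and Tgfbi was 1.44-fold lower (-0.53, SE 0.04). Ltbp2 was 5.13-fold higher (2.36, SE 0.05) and Tgfb3 1.46-fold higher (0.54, SE 0.04). These 4 of 10 genes were called, where 18.7% of all genes tested were, 12.0% higher and 6.73% lower at the bell stage. Ltbp1 at -0.30 and Tgfbr3 at -0.34 were below the fold limit, as was Tgfb1 at 0.49, which passed it without Cap-B replicate 1 (0.51) or Bell-B replicate 2 (0.50).

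Marker sums also differed between the stages. From Cap-L to Bell-L the skeletal muscle sum was 21.7 to 22.8 and then 120 to 131 normalized CPM, the macrophage sum 99.4 to 102 and then 374 to 380, the osteoblast sum 2687.3 to 2945.7 and then 5187.6 to 5576.0, and the erythroid sum 2929.7 to 3626.0 and then 6439.5 to 6797.3. From Cap-B to Bell-B the muscle sum was 205 to 220 and then 810 to 836, the macrophage sum 107 to 113 and then 204 to 208, the osteoblast sum 3572.2 to 3800.8 and then 5987.5 to 6180.4, and the erythroid sum 3350.5 to 3483.7 and then 5437.9 to 5821.5. These sums were all higher at the bell stage, whereas the sums of cartilage and dental mesenchyme were lower. They were 369 to 396 and 3050.1 to 3106.8 in Cap-L, and 164 to 176 and 2431.8 to 2505.2 in Bell-L. In Cap-B they were 198 to 204 and 3113.0 to 3171.2, and in Bell-B 131 to 146 and 2454.7 to 2470.9. The sum of smooth muscle and pericytes was lower in Bell-L (584 to 617) than in Cap-L (634 to 679), and higher in Bell-B than in Cap-B. The part of these markers in the stage differences of the TGF-beta genes was not tested.

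In the undivided mesenchyme, 6 of the 10 genes were called higher at the bell stage and none lower, where 14.5% of all genes tested were called, 10.3% higher and 4.21% lower. The stages did not overlap for 8 of the 10 genes, as for 36.3% of all genes. Ltbp2 had a log2 fold change of 5.19 (SE 0.36, edgeR adjusted p = 0.000289), Tgfb2 one of 1.10 (SE 0.11, edgeR adjusted p = 0.00111), Ltbp1 one of 0.88 (SE 0.09) and Tgfbr2 one of 0.69 (SE 0.12). The remaining calls, Tgfb1 at 1.5 (SE 0.40, edgeR adjusted p = 0.0410) and Ltbp3 at 0.57 (SE 0.13, edgeR adjusted p = 0.0234), depended on single libraries. Without Bell-W replicate 3, Tgfb1 was at 0.87 (edgeR adjusted p = 0.0329) and Ltbp3 at 0.46, below the fold limit. Without Cap-W replicate 1, Tgfb1 was not called (1.43, edgeR adjusted p = 0.0982), and Ltbp3 was at 0.50. Each of these removals left 5 of the 10 genes called. Tgfb1 was also not called without Cap-W replicate 2, Cap-W replicate 3 or Bell-W replicate 2, and Ltbp3 was not called when any of these 3 libraries was left out. Tgfbr1, at -0.64 (SE 0.23, edgeR adjusted p = 0.103), was not called in the edgeR fit of these 6 libraries, and was called by DESeq2 at an adjusted p of 0.0393 and by edgeR with all 24 libraries in 1 fit (-0.63, adjusted p = 0.000849). Epithelial markers summed to 386 to 573 normalized CPM in Cap-W and to 500 to 2142.6 in Bell-W, and macrophage markers to 49.7 to 55.8 and 238 to 256. Whether they bear on these values was not tested.

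Culture was compared with the fresh cap stage part of the same side. In the lingual part 9 of the 10 genes were higher after 2 days, all but Tgfbr1, where 35.4% of all genes tested were called, 19.6% higher and 15.9% lower. Fresh and cultured libraries did not overlap for any of the 10 genes on either side, as for 66.9% of all genes on the lingual side and 68.6% on the buccal side. Ltbp2 was 25.9-fold higher (log2 fold change 4.70, SE 0.07, edgeR adjusted p = 2.14e-26) and Tgfb2 4.02-fold higher (2.01, SE 0.05, edgeR adjusted p = 6.10e-22). Tgfbi (1.46), Tgfbr2 (1.40), Tgfb1 (1.22), Ltbp1 (1.14), Tgfbr3 (1.06), Tgfb3 (1.02) and Ltbp3 (0.74) followed on the log2 scale. Tgfbr1 was at 0.14 with TMM scaling and at -0.02 with library totals alone, a scaling that moved the median of all genes by -0.151. The median of the 10 genes was 1.18, against -0.03 over all genes tested.

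In the buccal part 5 of the 10 genes were higher after culture and none was lower, where 34.5% of all genes tested were called, 17.9% higher and 16.6% lower. They were Ltbp2 (log2 fold change 3.34, SE 0.05), Tgfbr2 (0.88, SE 0.03), Tgfb2 (0.86, SE 0.04), Tgfbi (0.75, SE 0.03) and Tgfb3 (0.68, SE 0.04), with edgeR adjusted p-values of 3.47e-17 or less. Tgfb1 and Tgfbr3, both at 0.43, stayed below the fold limit. Ltbp1 was at 0.01 (SE 0.03, edgeR adjusted p = 0.701) with TMM scaling and at -0.07 with library totals alone. The 10 skeletal muscle markers summed to 205 to 220 normalized CPM in Cap-B and to 3393.1 to 3575.2 in Cap-B + 2D. The 9 erythroid markers found summed to 3350.5 to 3483.7 and 35.9 to 41.5 in the same groups. On the lingual side the muscle sum was 21.7 to 22.8 before and 294 to 315 after culture, the osteoblast sum 2687.3 to 2945.7 and 10489.1 to 11469.7, and the macrophage sum 99.4 to 102 and 316 to 326. In the buccal part the epithelial sum was 383 to 400 before and 90.2 to 92.7 after culture, the endothelial sum 508 to 524 and 202 to 208, and the sum of smooth muscle and pericytes 690 to 708 and 1830.6 to 1970.4. In the lingual part the erythroid sum was 2929.7 to 3626.0 before and 35.0 to 41.2 after culture. The epithelial sum there was 525 to 574 and 422 to 455, and the endothelial sum 575 to 581 and 468 to 480. The buccal osteoblast sum was 3572.2 to 3800.8 before and 8009.1 to 8851.8 after culture. The buccal macrophage sum was 107 to 113 and 216 to 221. In the lingual part the sum of smooth muscle and pericytes was 634 to 679 before and 1144.5 to 1219.5 after culture. Skeletal muscle, macrophage, osteoblast, smooth muscle and cartilage sums were higher after culture in both parts. Erythroid, epithelial, endothelial and dental mesenchyme sums were lower in both. The Schwann cell and glia sum was lower in the lingual part and higher in the buccal part. The part of these markers in the culture differences was not tested.

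**Figure D5:**
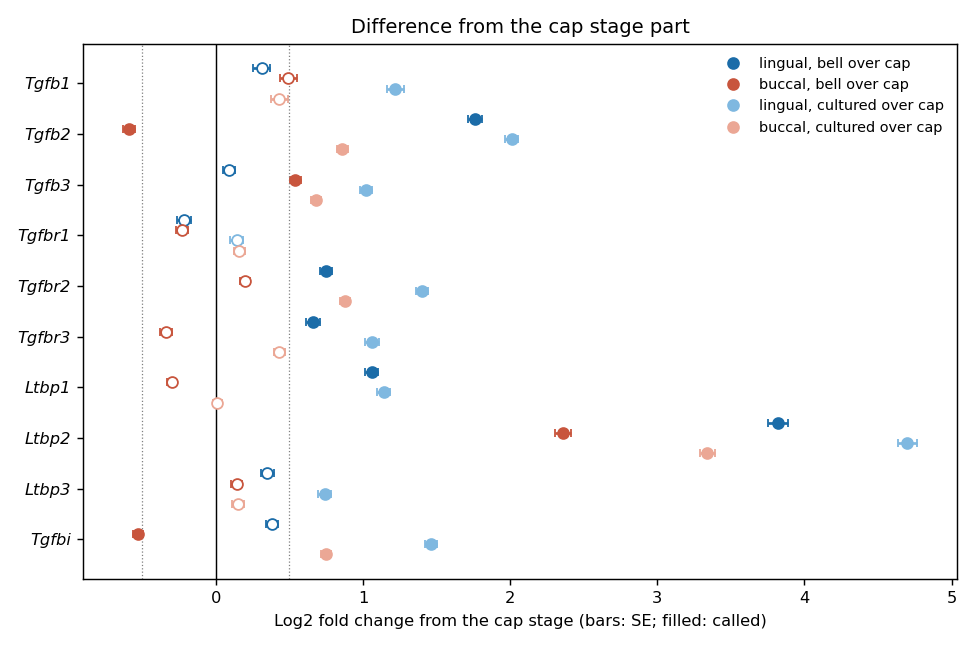
Points give the log2 fold change from the cap stage part of the same side (x axis) of the 10 genes, for the bell stage and for 2 days of culture on each side, with the SE as bars, filled where called and with dotted lines at the fold limit of 0.5. Ltbp2 lies far to the right in all 4 comparisons (2.36 to 4.70), Tgfb2 is left of 0 only for the buccal bell stage (-0.59), and lingual points for culture lie right of the buccal ones for 9 of the 10 genes.

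The change of the side difference was then tested itself, as an interaction over 12 libraries, called at an adjusted p under 0.05. From cap to bell, 8 of the 10 genes were called, 7 toward the lingual side and 1 toward the buccal side, where 32.5% of all genes tested were called, 18.0% toward the lingual and 14.5% toward the buccal side. The largest shift was that of Tgfb2, by -2.36 on the log2 scale (SE 0.06, edgeR adjusted p = 3.42e-22), followed by Ltbp2 (-1.47, SE 0.09), Ltbp1 (-1.37, SE 0.06) and Tgfbr3 (-1.01, SE 0.07). The genes that were higher on the buccal side at the cap stage were thus within the fold limit at the bell stage. Tgfb3 alone moved toward the buccal side (0.44, SE 0.05, edgeR adjusted p = 1.93e-07), and no change was detected for Tgfb1 (0.17, SE 0.08, edgeR adjusted p = 0.131) or Tgfbr1 (-0.02, SE 0.06). With culture, 9 of the 10 genes moved toward the lingual side, all but Tgfbr1 (0.02, SE 0.06, edgeR adjusted p = 0.850), where 35.5% of all genes tested were called, 19.5% toward the lingual side. Ltbp2 (-1.37, SE 0.10), Tgfb2 (-1.15, SE 0.06) and Ltbp1 (-1.13, SE 0.06) moved most, and Tgfb1 moved by -0.79 (SE 0.09). The bell stage and the cultured parts were both set against the same cap stage libraries, so their values are not independent of each other.

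Around the 10 genes, a list of 15 genes of latency and activation held 5 calls among 14 tested at the cap stage, 4 of them buccal, which is 35.7% against 17.5% of all genes. It held 5 calls among 15 at the bell stage, 3 of them buccal (33.3% against 12.9%), and 7 among 15 after culture, 5 of them buccal (46.7% against 25.1%). Eln, elastin, was called on the buccal side each time, with log2 fold changes of 1.98, 1.41 and 0.83 at the cap stage, at the bell stage and after culture. Thbs1, thrombospondin 1, which can free the latent ligand, had 1.40 at the cap stage and 0.98 after culture, and Fbn2, fibrillin 2, had 1.02 and 1.35. Ltbp4, the remaining latent binding protein gene, was on the lingual side with -0.69 and -0.58. Adamtsl2, a fibrillin-associated protein, was called at the bell stage (1.16) and after culture (2.32) on levels of 0.699 to 6.26 normalized CPM as group means of those 4 groups, while Itgb6, an integrin subunit of epithelium, had 0.73 and 1.81 on group means of 0.487 to 2.07. Nrros, an anchor of latent TGF-beta1 in myeloid cells, was lingual after culture (-0.97). At the bell stage Fbn1, fibrillin 1, and Fn1, fibronectin, both had -0.53. Fbn1 shares 20.1% of its exon bases with another gene, where pairs were not counted.

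Of 24 receptor-proximal and Smad genes, 2 were called at the cap stage, 3 at the bell stage and 5 after culture, shares of 8.33%, 12.5% and 20.8% that were below or near those of all genes (17.5%, 12.9% and 25.1%). Acvrl1, a type I receptor of endothelium, was lingual throughout, with log2 fold changes of -0.73, -0.80 and -2.58 in the same order. Bambi, a decoy receptor, was lingual too, with -1.42, -0.59 and -2.18. After culture the feedback genes Skil (-0.82) and Pmepa1 (-0.76) were also on the lingual side, while Tgif2, a co-repressor, had 0.65 (SE 0.22) at the bell stage and 0.62 (SE 0.20) after culture. Other genes share 74.6% of the exon bases of Tgif2, where pairs were not counted, so its value rests on the remaining bases. Endothelial markers were lower in Cap-B + 2D, as given above, and their part in the value of Acvrl1 was not tested.

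A list of 24 TGF-beta response genes was not sorted by whether TGF-beta raises or lowers them. At the cap stage 14 of 23 tested were called, 7 on each side, which is 60.9% against 17.5% of all genes. At the bell stage 4 of 24 were called, 3 of them lingual, a share of 16.7% that was near the 12.9% of all genes. After culture 14 of 24 were called, 10 of them lingual (58.3% against 25.1%). Itga11, a collagen receptor subunit, was lingual each time (-2.12, -1.60 and -1.70), as were Postn, periostin (-1.10, -1.39 and -0.65), and Sphk1, sphingosine kinase 1 (-0.53, -0.64 and -0.64). Acta2, smooth muscle actin, was buccal each time (2.93, 1.91 and 1.36). It also stands in the marker list of smooth muscle and pericytes, whose sum was 634 to 679 normalized CPM in Cap-L and 690 to 708 in Cap-B, 584 to 617 in Bell-L and 848 to 867 in Bell-B, and higher on the buccal side after culture too, as given above. Its part in the value of Acta2 was not tested. At the cap stage Lox, which crosslinks collagen (2.39), and Dcn, decorin (2.15), were buccal and Ccn2, which shares 24.4% of its exon bases with another gene, was lingual (-1.32). After culture Timp1, an inhibitor of matrix proteases, was lingual (-1.09), whereas Dcn stayed buccal (0.89). The response genes called were thus divided between the sides at the cap stage, and a link to the ligand genes was not tested.

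Between the stages and with culture these response genes went mostly one way. In the undivided mesenchyme 18 of 23 were called higher at the bell stage, where 10.3% of all genes were, and 1 lower. The 19 calls became 18 without Cap-W replicate 1, 18 without Bell-W replicate 3 and 14 without Cap-W replicate 3. From cap to bell 14 of 24 were higher on the lingual side (14.2% of all genes) and 13 of 24 on the buccal side (12.0%). Snai2, a transcriptional repressor, was the gene called lower, in the undivided mesenchyme (-0.98) and on the buccal side (-0.64). After culture 21 of 24 were higher on the lingual side (19.6% of all genes) and 20 of 24 on the buccal side (17.9%), with no gene called lower. Their median log2 fold change with culture was 1.88 on the lingual side and 1.34 on the buccal side, against -0.03 and -0.02 over all genes tested. The list holds Col1a1 of the osteoblast markers and Acta2 and Tagln of smooth muscle and pericytes, whose sums were higher after culture in both parts. Tagln shares 67.9% of its exon bases with other genes, where pairs were not counted. The part of these cells in the response genes, and a link to the ligand genes, were not tested. Of the latency genes 10 of 15 were called after culture on the lingual side (66.7% against 35.4% of all genes), 9 of them higher, and 5 of 15 on the buccal side (33.3%, near the 34.5% of all genes). Of the receptor-proximal and Smad genes 7 of 24 were called on the lingual side (29.2%) and 3 of 24 on the buccal side (12.5%), shares below those of all genes. The 3 calls in the buccal part became 5 without Cap-B replicate 2 and 6 without Cap-B + 2D replicate 3.

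For several genes the undivided mesenchyme did not lie between its parts. At the cap stage, all 3 Cap-W libraries were below all 6 libraries of Cap-L and Cap-B for Tgfb1, Tgfbr2, Tgfbr3, Ltbp1, Ltbp2 and Ltbp3, that is for 6 of the 10 genes, where 17.3% of all genes were. Tgfbr1 was the 1 gene above both parts, as were 10.9% of all genes, and 28.2% lay on either outer side. At the bell stage 5 of the 10 genes, Tgfb3, Tgfbr3, Ltbp1, Ltbp2 and Ltbp3, lay below both parts, against 10.5% of all genes, and none lay above, against 8.05%. Without Cap-W replicate 1, 7 of the 10 genes were below both parts at the cap stage, Tgfbi being the further one, against 22.8% of all genes. Without Bell-W replicate 3, 7 were below at the bell stage, with Tgfb1 and Tgfb2 in addition (20.7% of all genes), and Tgfbr1 was above (15.5%). Some marker sums of Cap-W were also below both parts, at 894 to 1201.2 normalized CPM for osteoblasts, 226 to 243 for endothelium and 49.7 to 55.8 for macrophages. The skeletal muscle sum of Cap-W, at 13.9 to 19.9, was below both parts too. In Bell-W the osteoblast sum, at 3186.7 to 4417.9, and the skeletal muscle sum, at 9.17 to 19.0, were below both parts. The endothelial sum of Bell-W, at 465 to 564, and its cartilage sum, at 90.0 to 111, were below both parts as well. The part of these cells in the position of the undivided libraries was not tested.

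The genes whose group means across the 8 groups followed a ligand gene most closely were named from 2480 candidates with adequate level and spread. For Tgfb3 they were Lynx1 (Pearson's r 0.993), Ltbr (0.982) and Nr4a2 (0.982). For Tgfb2 they were Tlr2 (0.951), Avpr1a (0.949) and Scml4 (0.943), and for Tgfbi Trank1 (0.979), Tafa2 (0.975) and Prickle1 (0.974). The 8 points share their libraries and scaling, and these values are a description of likeness without a test.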

How the data were processed

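The authors deposited whole-number read-pair counts per gene for the 24 libraries, made per the file headers with featureCounts of Subread 2.0.0 over the exons of Ensembl release 107 (GRCm39), without strand and leaving out pairs that mapped to several places or genes. The aligner is given differently in the sources used here, since the submitters' processing notes list Bowtie 1.2.3 and the study's methods name another tool. The deposited table also holds each gene's exon length, which was used for levels per kilobase. Counts were analysed with edgeR 4.0.16 in R 4.3.3 (TMM, filterByExpr, quasi-likelihood test, Benjamini-Hochberg adjustment over all genes). Side comparisons and the undivided stage comparison used their 6 libraries, stage and culture within a side used 1 fit of 9, and interactions used 12. The SE is the absolute log2 fold change over the square root of F. With 3 libraries against 3, the smallest p of an exact two-sided permutation test for a single gene is 0.10. Replicates of the parts differed by little to somewhat more than sampling noise, with chi-square per degree of freedom from 1.32 (Cap-B) to 9.84 (Cap-L). It was 7.89 to 161 in Cap-W and 12.8 to 61.8 in Bell-W. The p-values of the parts thus mostly rest on a narrower spread between libraries than those of the undivided mesenchyme. Floors cover counting error only. On simulated counts for the cap stage sides, 100 of 100 genes changed by a log2 of 1 were recovered with 4 false calls over 20352 genes, and for the undivided stage comparison 52 of 100 with 11 over 20502. Symbols come from GENCODE release 39 and promoters from RefSeq. The text names all 10 pathway members, listed pathway genes called in all 3 side comparisons, the 2 with the largest change in each direction per side comparison, and for Tgfb2, Tgfb3 and Tgfbi the 3 genes most alike; Fbn2, Skil, Pmepa1 and Snai2 were added after their values were seen. Col1a1 and Tagln are named because they also stand in marker lists. Any other listed gene is counted but not reported by name here. The genes, lists and alternatives (RLE or library totals, DESeq2 1.42.0, other filters and fold limits, all libraries in 1 fit, the replicate block, each library left out) were chosen with earlier results of these data known.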

Additional observations from a re-analysis of the deposited data

Results flagged for a closer look

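The difference between the sides changed from the cap to the bell stage in 8 of the 10 genes, by the interaction test. The log2 differences were -2.36 for Tgfb2, -1.47 for Ltbp2, -1.37 for Ltbp1, -1.01 for Tgfbr3, -0.91 for Tgfbi, -0.57 for Tgfbr2, -0.22 for Ltbp3 and 0.44 for Tgfb3, where a negative value is a shift toward the lingual side. Ltbp3 was the weakest of these, with an edgeR adjusted p of 0.00300, and it was not called with all 24 libraries in 1 fit (0.281).

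With culture, the side difference changed in 9 of the 10 genes. The values were -1.37 for Ltbp2, -1.15 for Tgfb2, -1.13 for Ltbp1, -0.79 for Tgfb1, -0.71 for Tgfbi, -0.64 for Tgfbr3, -0.60 for Ltbp3, -0.53 for Tgfbr2 and -0.35 for Tgfb3. The value for Tgfb1 was not called with all 24 libraries in 1 fit (edgeR adjusted p = 0.123). Skeletal muscle markers summed higher in both parts after culture, and their part in these values was not tested.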

How the results depend on the processing

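Of 1420 values of single genes under the alternatives, 1388 kept their direction and their side of the threshold, 12 lost and 6 gained a call, and 14 turned direction; causes were not tested. Without a limit on the fold, the genes called of 10 were 6 for side at the bell stage, 9 for side after culture, 9 for stage in the lingual part, 10 in the buccal part and 9 for culture in the buccal part, and with a limit over 1 they were 1, 3, 3, 1 and 1, with 3 for stage in the undivided mesenchyme. With 1 library left out the counts ranged from 6 to 7 (side, cap), 3 to 3 (bell), 5 to 5 (culture), 4 to 6 (stage, undivided), 5 to 5 (lingual), 4 to 5 (buccal), 9 to 9 and 5 to 5 (culture, lingual and buccal), 8 to 9 (side by stage) and 9 to 9 (side by culture). The values that turned direction were small. Tgfbr1 for side after culture was 0.04 with library totals alone and 0.03 without Cap-B + 2D replicate 3, and for lingual culture -0.02 with library totals. For side by stage it was 0.03 with library totals, 0.01 without a filter, 0.01 with all libraries, 0.04 without Cap-L replicate 2, 0.00 without Cap-B replicate 1 and 0.00 without Bell-B replicate 3, and for side by culture -0.01 without Cap-L replicate 1 and -0.00 without Cap-B + 2D replicate 1. Tgfbi for the undivided stage was -0.01 without Cap-W replicate 3 and -0.01 without Bell-W replicate 3, and Ltbp1 for buccal culture was -0.07 with library totals. Tgfb1 for side by stage was called with library totals (0.22, edgeR adjusted p = 0.0479) and without Cap-L replicate 1 (0.24). Counts of the 3 surrounding lists moved by over 1.5 times in 39 of 54 cases with another fold limit, in 8 of 210 with other settings and in 9 of 216 with 1 library left out, all 9 in the list of receptor-proximal and Smad genes, which holds few calls. All genes called for the undivided stage numbered 3037, with 5887 in a fit of all 24 libraries 1758 without Cap-W replicate 3 and 1832 without Bell-W replicate 2, and with all 24 libraries the interactions went from 7137 to 2581 (stage) and from 7842 to 4048 (culture). With 1 library left out, Tgfbr1 ranged from -0.04 to 0.03 (side after culture), -0.06 to 0.04 (side by stage) and -0.01 to 0.07 (side by culture), and Tgfbi from -0.01 to 0.25 (undivided stage).

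The replicate numbers of the labels gave no consistent pairing of the libraries. The correlation of same-numbered deviations was -0.09, -0.15 and -0.00 for the cap stage sides and 0.08, 0.10 and 0.10 for the undivided stages. It was 0.05, 0.11 and 0.06 for the stages of the buccal part, and in no comparison did all pairs pass 0.1. For the undivided and the buccal stages, each of the 3 cap stage libraries correlated best with the bell stage library of its own number. With the replicate number as a block, Tgfb1 in the undivided stage comparison was at 1.35 (edgeR adjusted p = 0.0469), and the block changed no call. Setting the undivided libraries against the parts without Cap-W replicate 1 or Bell-W replicate 3 was chosen after seeing the data. Depth limits Ltbp2 in Cap-W, which rests on 10 to 21 read pairs per library.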
